A study of Mus musculus with 8 samples.

Results

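Autophagy encloses cytoplasm in a double membrane and delivers it to lysosomes, and mitophagy is its use on mitochondria. The genes described here are 38 components of this machinery in mouse skeletal muscle, picked by symbol from the initiation, nucleation, conjugation, receptor and mitophagy steps and their transcription factors. All 38 were found among the 24341 genes of every library, each as 1 row with an OK status. The tissue was tibialis anterior, a mostly fast-twitch leg muscle, from 8 chow-fed mice of 12 weeks that the series text calls male. The 4 knockout animals (Carm1 skm-/-) carried floxed Carm1 with HSAcre Tg/0, a transgene in which the human skeletal actin promoter drives Cre in muscle fibres, and the 4 controls (Carm1 skm+/+) carried floxed Carm1 with HSAcre 0/0. All 8 animals thus share the floxed gene, presence of Cre goes with loss of Carm1 in every library, and no Cre-only group was compared. Each library is 1 animal per the labels, and cells other than fibres in the knockout keep an intact gene. Carm1 encodes a protein arginine methyltransferase that acts as a transcriptional coactivator, and the contrast of genotypes shows the muscle RNA with and without it in fibres. Levels are FPKM, fragments per length of transcript and per total of mapped fragments, divided by a scaling factor per library (scaled FPKM).

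In the autophagy pathway the ULK kinase complex starts the membrane, a class III PI3-kinase complex marks it with the lipid PI3P, and WIPI proteins read that mark. Conjugation enzymes then attach LC3 and GABARAP proteins, the ATG8 family, to the membrane, where receptors such as p62 bind them and bring cargo. Mitochondria are delivered through receptors in their outer membrane or through the kinase PINK1 and the ubiquitin ligase parkin. In muscle the pathway is active in fasting and denervation, and TFEB, TFE3 and FoxO factors are known to drive its genes. CARM1 has been described as a coactivator of TFEB in other cells.

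The libraries were first checked for the targeted gene and for libraries that stand apart. Carm1 stood at 27.1, 37.4, 27.3 and 30.1 scaled FPKM in controls 1 to 4 and at 18, 12.7, 17.2 and 13.8 in knockouts 1 to 4. The groups did not overlap, the log2 difference was -0.94, and the 2-sided exact permutation p was 0.0286, the smallest that 70 assignments can give. In the limma fit over all genes, described below, Carm1 had an adjusted p of 0.0466. The deleted exons are not given in the sources used here, and the listed genes Yipf2 and 1810026J23Rik overlap Carm1. Read counts per library are not known, and relative depth, estimated from the lowest values, ranged from 81.0% to 100% of that of the deepest library. Xist, the RNA of the inactive X chromosome of females, was found at 19.6 to 22.9 FPKM in 3 libraries, control 1 and knockouts 2 and 4, while no other library exceeded 0.0662 FPKM, and the series text calls all animals male. The Y-linked genes went the other way, with Eif2s3y at or below 0.112 FPKM in those 3 and at 42.3 FPKM or more in the rest, and Ddx3y at or below 0.0444 and at 8.08 FPKM or more. The type IIa myosin gene Myh2 was 764 FPKM or more in those 3 libraries and 167 FPKM or less in the other 5. Knockouts 2 and 4 also differ from the other 6 libraries in having no gene with a low-data status. Abundant muscle genes stood at 0 FPKM in some libraries, and a 0 here cannot be read as absence of the transcript. The myosin gene Myh4 was at 2937 and 3056 FPKM in knockouts 2 and 4 and at 0 in the other 6. The actin gene Acta1 was at 0 in controls 1, 2 and 4 and knockout 1, and at 16275 FPKM or more in the rest. Acta1 had a status other than OK in at least 1 library. The genotype results below were also computed with Xist (present or absent) as a term, in the 5 libraries lacking it, and without knockouts 2 and 4.

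None of the 38 autophagy genes differed between knockout and control at an adjusted p under 0.05 (limma, Benjamini-Hochberg over 11096 genes), where 0.36% of all genes tested passed. All 38 passed the filter on low values, and the smallest adjusted p among them was 0.203, for Atg7. At an unadjusted p under 0.05 there were 3 of 38 genes (7.89%), all lower in the knockout, against 13.1% of all genes tested in either direction and 6.07% lower. The 3 were Atg7 and Atg4b, enzymes of ATG8 conjugation, and the mitophagy receptor gene Bnip3l. On FPKM as deposited only Atg7 of the 38 stayed under 0.05, at a log2 difference of -0.25, while Atg4b and Bnip3l were at -0.14 and -0.13 with unadjusted limma p-values of 0.138 and 0.217. The median log2 difference of the 38 was -0.026, beside -0.0021 over all genes tested. For 34 of the 38 (89.5%) the difference was smaller than 0.25 in size, as for 82.0% of all genes tested.

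For 32 of the 38 genes the 95% interval of the log2 difference lay within -0.5 to 0.5, and for 36 it lay within -1 to 1. The exceptions at the wider limit were Park2, with an interval of -0.15 to 1.49, and Optn, with -1.06 to 0.060. Of the 38 genes 23 (60.5%) were lower in the knockout after scaling and 15 higher, beside 50.5% of all genes tested lower. On FPKM as deposited 11 were lower (28.9%), beside 33.1% of all genes tested, so the balance of directions depends on the scaling. Over all genes, the calls split into 22 higher (0.198%) and 18 lower (0.162%) after scaling and into 36 higher and 13 lower without it.

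**Figure D1:**
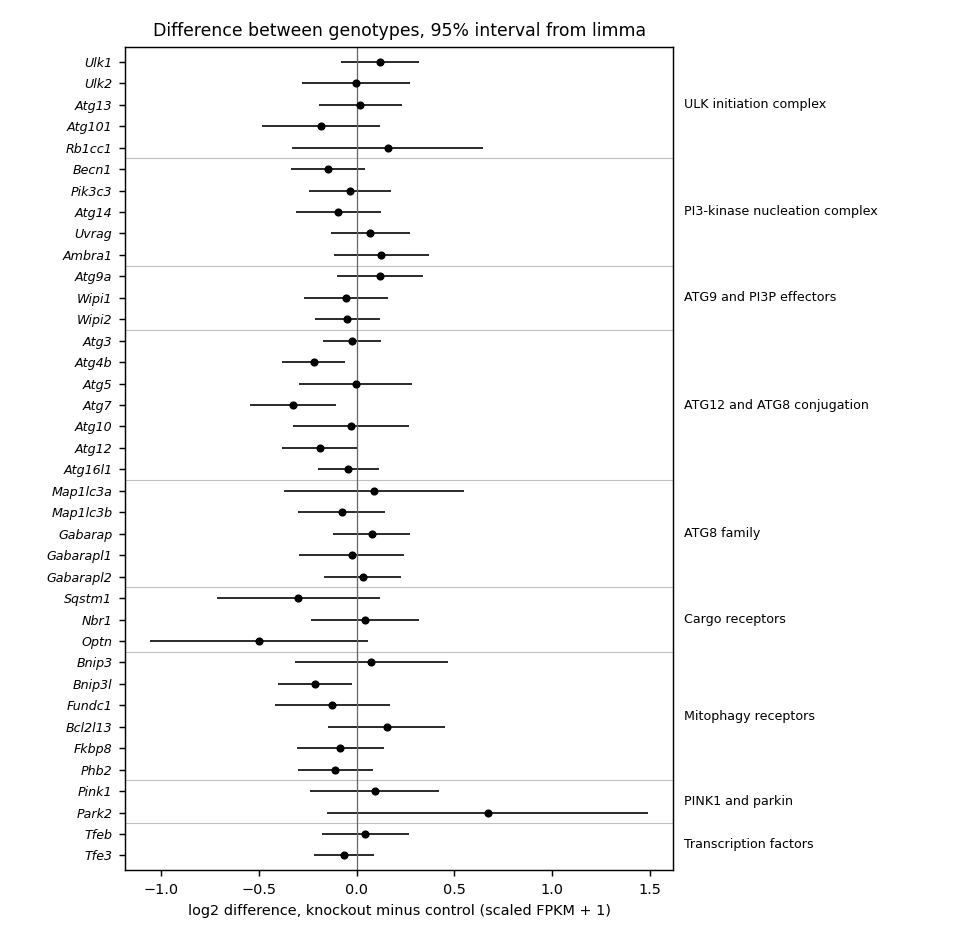
Log2 difference of each of the 38 genes between knockout and control, on the log2(scaled FPKM + 1) scale, with points for the estimate and bars for the 95% interval from limma, grouped by step. The bars of Atg4b, Atg7 and Bnip3l end below 0, and Park2 has the widest bar, -0.15 to 1.49.

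The genes differed far more in level than between genotypes. Averaged over the 8 libraries, levels ran from 3.97 scaled FPKM for Atg14 to 481 for Pink1, with a median of 16.9, beside 8.11 over all genes tested. The 6 genes above 100 scaled FPKM were Pink1, Sqstm1, Map1lc3a, Gabarap, Phb2 and Map1lc3b, which are receptors, ATG8 proteins and mitochondrial factors. Another 24 lay between 10 and 100, and 8 lay below 10: Pik3c3, Atg14, Uvrag, Ambra1, Atg5, Atg7, Park2 and Tfe3. The level of Atg5, at 9.03 ± 0.809 in controls and 9.09 ± 1.74 in knockouts (each a mean ± SD over 4 animals, as for all values so written), lay within the spread of those of Pik3c3 and Park2. FPKM are per length, so levels can be set side by side between genes.

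**Figure D2:**
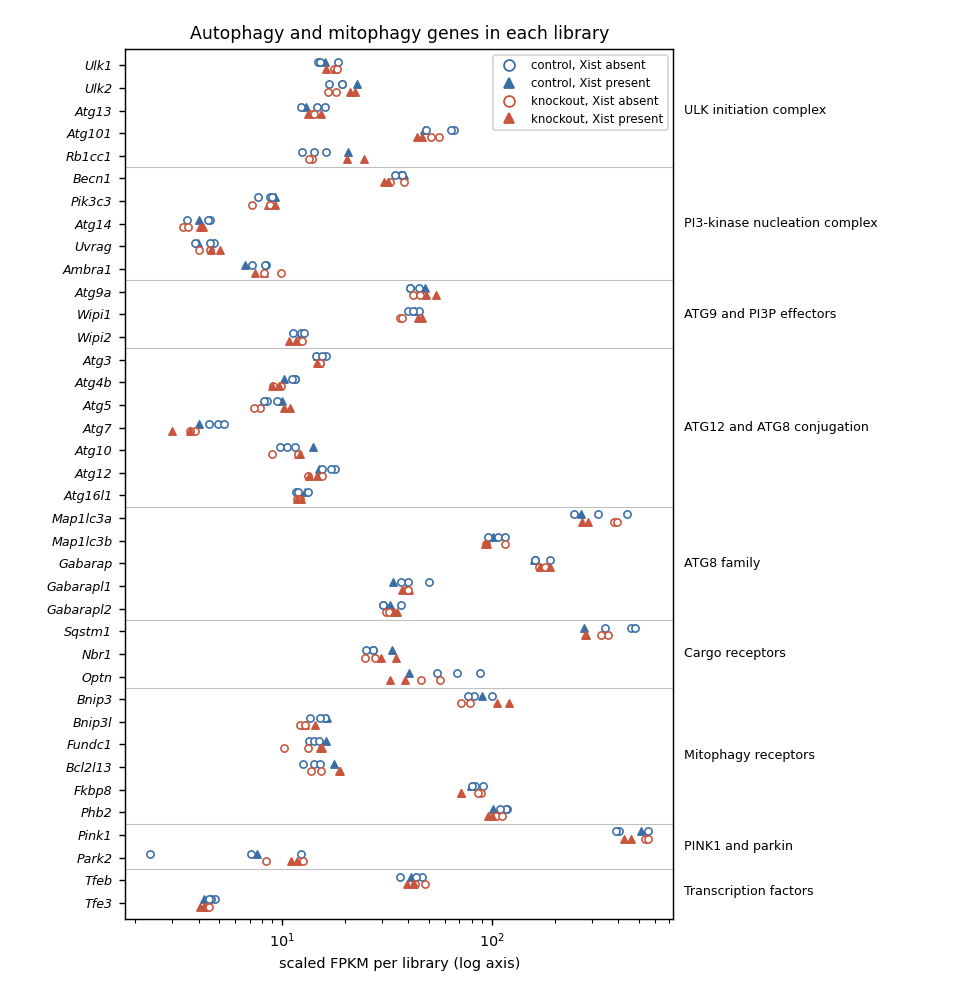
Scaled FPKM (log axis) of each of the 38 genes in each of the 8 libraries, grouped by step; blue points are controls and red points knockouts, and filled triangles are the 3 libraries that hold Xist. Red and blue points overlap for 36 genes, and Atg4b and Atg7 are the 2 without overlap.

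In the ULK initiation complex, 3 of 5 genes were higher and 2 lower, with a median log2 difference of 0.019, and none passed the test. Atg101, which stabilises the ATG13 subunit, had the highest level and the largest difference of the step. It stood at 47.7, 65.7, 64.1 and 48.5 scaled FPKM in controls 1 to 4 and at 55.8, 46.3, 51.4 and 43.8 in knockouts 1 to 4. The groups overlapped, with controls 2 and 3 highest and knockouts 2 and 4 lowest. The log2 difference was -0.18 (95% interval -0.49 to 0.12, adjusted p = 0.609). The kinase gene Ulk1 stood at 16.1 ± 1.68 in controls and 17.5 ± 0.95 in knockouts, a log2 difference of 0.12 with an interval of -0.079 to 0.32. Its paralog Ulk2 stood at 19.6 ± 2.55 and 19.6 ± 2.66 scaled FPKM. The adaptor gene Atg13 stood at 14 ± 1.64 and 14.2 ± 0.888. Rb1cc1, which encodes the scaffold FIP200, stood at 15.9 ± 3.53 and 18.1 ± 5.42, and its knockout values ran from 13.5 to 24.7.

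Of the 5 nucleation genes, 2 were higher and 3 lower, with a median of -0.032 and none past the test. Becn1, the scaffold of the PI3-kinase complex, was the most abundant. Becn1 stood at 38.3, 37, 37.5 and 34.5 scaled FPKM in controls 1 to 4 and at 32.6, 31.9, 38 and 30.7 in knockouts 1 to 4. Knockouts 1, 2 and 4 lay below every control, while knockout 3 lay above 3 of the 4 controls. The log2 difference of Becn1 was -0.15 (interval -0.34 to 0.045, adjusted p = 0.502). Its listed position on chromosome 11 from 101279203 to 101302267 (mm10) overlaps the listed gene Cntd1, and the sharing of reads between them is uncertain. The catalytic subunit gene Pik3c3 stood at 8.65 ± 0.649 in controls and 8.45 ± 0.894 in knockouts. Atg14, which directs the complex to autophagy, stood at 4.13 ± 0.468 and 3.81 ± 0.403, and Uvrag, the subunit of the endosomal form, at 4.28 ± 0.423 and 4.55 ± 0.415. Ambra1, a positive regulator of beclin 1, stood at 7.62 ± 0.872 and 8.42 ± 1.06, a log2 difference of 0.13.

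Among the genes for membrane supply and PI3P reading, Atg9a was the highest in level. Atg9a, a lipid scramblase that travels in vesicles, stood at 47.8, 44.9, 40.9 and 41 scaled FPKM in controls 1 to 4 and at 42.1, 48.5, 45.5 and 54.2 in knockouts 1 to 4. Knockout 4 had the highest value and controls 3 and 4 the lowest, and the log2 difference was 0.12 (interval -0.10 to 0.34, adjusted p = 0.657). Wipi1 stood at 42.6 ± 2.16 in controls and 41.1 ± 4.85 in knockouts. Wipi2, whose protein recruits ATG16L1, stood at 12.1 ± 0.609 and 11.7 ± 0.671 with an interval of -0.21 to 0.12 for the log2 difference.

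All 7 conjugation genes had a lower mean log2 value in the knockout after scaling, although the count was 3 of 7 on FPKM as deposited and none passed the test. Their median log2 difference was -0.042, so most of these differences were small. Atg7, the E1-like enzyme that activates both ATG12 and the ATG8 proteins, had the largest. Atg7 stood at 4.02, 4.94, 5.27 and 4.51 scaled FPKM in controls 1 to 4 and at 3.86, 3.0, 3.63 and 3.63 in knockouts 1 to 4. Every knockout value lay below every control value after scaling, by the narrow gap between 3.86 in knockout 1 and 4.02 in control 1. The log2 difference was -0.33 (SE 0.097, interval -0.55 to -0.11), with an unadjusted limma p of 0.00869 and an adjusted p of 0.203. At this low level the added 1 FPKM shrinks the difference, and the knockout mean was 75.4% of the control mean.

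Atg4b, the protease that trims ATG8 proteins before conjugation, showed the same order. Atg4b stood at 10.2, 11.5, 11.5 and 11.1 scaled FPKM in controls 1 to 4 and at 9.9, 9.63, 9.04 and 8.96 in knockouts 1 to 4. The groups did not overlap after scaling, the log2 difference was -0.22 (SE 0.072, interval -0.38 to -0.057), and the unadjusted and adjusted limma p were 0.0138 and 0.235. Atg4b and Atg7 were the 2 of 38 genes (5.26%) without overlap between genotypes, beside 8.31% of all genes tested. On FPKM as deposited no autophagy gene was without overlap, beside 9.94% of all genes tested. Atg12, the ubiquitin-like protein joined to ATG5, stood at 15, 17.8, 15.6 and 17.2 scaled FPKM in controls 1 to 4 and at 13.3, 13.5, 15.5 and 14.7 in knockouts 1 to 4. Knockout 3 lay between controls 1 and 3, and the log2 difference was -0.19 (interval -0.38 to 0.0029, adjusted p = 0.39).

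The other 4 conjugation genes had log2 differences smaller than 0.05 in size. Atg3, the E2-like enzyme for ATG8 proteins, stood at 15.3 ± 0.797 in controls and 15 ± 0.196 in knockouts, with an interval of -0.17 to 0.13 for the log2 difference. Atg10, the E2-like enzyme for ATG12, stood at 11.5 ± 1.85 and 11.2 ± 1.51. Atg16l1, which places the ligase on the membrane, stood at 12.4 ± 0.758 and 12 ± 0.273, and its interval was -0.20 to 0.11. The log2 difference of Atg5, the partner of ATG12, was -0.0051, with an interval of -0.30 to 0.29.

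Promoter windows are shown for the genes that hold the E-box CACGTG, the core of the sites bound by TFEB and TFE3. They were chosen since 3 of the 5 genes that hold it belong to the conjugation step and Atg7 has the smallest p of the 38. RefSeq windows (GRCm38.p6, 300 bases each, from 250 before the start site to 50 after it) were matched for 30 of the 38 genes and searched on both strands. The palindrome CACGTG was present in 5 of 34 windows of these genes (14.7%), beside 7.15% of all 32851 windows. The longer palindrome known as the CLEAR element, which is CACGTG with GT before it and AC after it, was in none of the 34 and in 0.326% of all windows. The forkhead core GTAAACA (reverse complement TGTTTAC) was in none of the 34 and in 3.65% of all windows. Each stretch of 30 bases is printed 5′ to 3′ on the gene's strand with CACGTG in capitals. The first Atg3 stretch is chr16:45158723-45158752 and the second chr16:45158746-45158775, both on the plus strand, with the motif beginning 94 and 71 bases before the start site. The Atg5 and Atg7 stretches are chr10:44268313-44268342 and chr6:114670952-114670981, both on the plus strand, at 14 and 132 bases before the RefSeq start. For Atg7 that start lies 27999 bases inside the gene as the deposited tables list it, so its window is not at the listed start, while the other 4 starts lie within 19 bases of the listed ones. The Atg14 and Bnip3 stretches are chr14:47568418-47568447 and chr7:138909597-138909626, both on the minus strand, and their motifs begin 1 and 108 bases before the start.
Atg3, first: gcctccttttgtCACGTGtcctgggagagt
Atg3, second: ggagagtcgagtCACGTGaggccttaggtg
Atg5: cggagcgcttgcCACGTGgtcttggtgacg
Atg7: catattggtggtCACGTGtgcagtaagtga
Atg14: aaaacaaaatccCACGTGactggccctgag
Bnip3: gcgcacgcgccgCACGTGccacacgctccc
The 5 genes with the E-box had log2 differences of -0.024 for Atg3, -0.0051 for Atg5, -0.33 for Atg7, -0.093 for Atg14 and 0.076 for Bnip3, so they did not share a direction.

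The ATG8 family is the pool that becomes attached to the membrane, and its 5 genes had log2 differences between -0.076 and 0.087, with 3 higher, 2 lower and none past the test. Map1lc3a stood at 265, 319.6, 439.6 and 247 scaled FPKM in controls 1 to 4 and at 382, 270.3, 396 and 287 in knockouts 1 to 4. Control 3 was the highest and control 4 the lowest of all 8, so the spread within controls covered every knockout. The log2 difference was 0.087 (interval -0.37 to 0.55, adjusted p = 0.891). Map1lc3b stood at 105 ± 8.31 in controls and 99.5 ± 10.8 in knockouts, Gabarap at 167 ± 14.9 and 176 ± 9.9, and Gabarapl1 at 40.1 ± 7.22 and 39 ± 1.38. Gabarapl2 stood at 32.7 ± 3.15 and 33.3 ± 1.84, and the listed gene 1700101I11Rik overlaps Gabarapl1. Of the summed FPKM of the 5 genes in a library, Map1lc3a made up 47.4% ± 4.28 in controls and 48.6% ± 4.77 in knockouts, and Gabarap 25.5% ± 2.42 and 26.1% ± 3.07 (SD, n = 4 each). Map1lc3b made up 16% ± 1.49 and 14.6% ± 0.971, and for each of the 5 shares the ranges of the genotypes overlapped.

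The cargo receptor genes had the lowest step median, -0.30, over 3 genes of which none passed the test. Sqstm1, which encodes the receptor p62, stood at 276, 459, 479.6 and 347 scaled FPKM in controls 1 to 4 and at 358, 280.1, 332 and 277 in knockouts 1 to 4. Controls 2 and 3 were the highest of all libraries, and control 1, at the level of knockout 4, was the lowest of the 8. The log2 difference was -0.30 (interval -0.71 to 0.12, adjusted p = 0.529). Optn, the gene of optineurin, a receptor for ubiquitin-tagged mitochondria, stood at 40.3, 68.5, 88.3 and 54.9 scaled FPKM in controls 1 to 4 and at 45.9, 38.6, 56.8 and 32.7 in knockouts 1 to 4. Controls 1 and 4 lay within the range of the knockouts, and the log2 difference was -0.50 (interval -1.06 to 0.060, adjusted p = 0.439). Without knockouts 2 and 4 the log2 difference was -0.14 for Sqstm1 and -0.24 for Optn. With a single library left out Sqstm1 ranged from -0.45 without control 1 to -0.19 without control 3, and Optn from -0.69 to -0.32, likewise without control 1 and without control 3. Nbr1, a receptor of the same kind as p62, stood at 28.2 ± 3.53 in controls and 29.2 ± 4.2 in knockouts.

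Of the 6 mitophagy receptor genes 2 were higher and 4 lower, with a median of -0.096 and none past the test. Bnip3l, also called Nix, stood at 16.4, 13.7, 16.1 and 15.2 scaled FPKM in controls 1 to 4 and at 12.2, 12.9, 12.9 and 14.4 in knockouts 1 to 4. Knockout 4 lay above control 2, and the other 3 knockouts lay below every control. The log2 difference was -0.21 (SE 0.083, interval -0.40 to -0.024), with an unadjusted limma p of 0.0315 and an adjusted p of 0.324. Its paralog Bnip3 stood at 87.5 ± 9.95 in controls and 94 ± 23.3 in knockouts, and the knockouts ranged from 71 in knockout 1 to 121 in knockout 4. The ratio of Bnip3 to Bnip3l was 5.71 ± 0.524 in controls and 7.13 ± 1.37 in knockouts (SD, n = 4 each), with 8.20 and 8.41 in knockouts 2 and 4 and 5.84 and 6.07 in knockouts 1 and 3.

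Phb2, an inner-membrane prohibitin and the most abundant of the 6, stood at 101, 118, 117 and 109 scaled FPKM in controls 1 to 4 and at 104, 99.9, 112 and 95.7 in knockouts 1 to 4. The groups overlapped, and the log2 difference was -0.11 (interval -0.30 to 0.083, adjusted p = 0.635). Fundc1, a receptor of the outer membrane, stood at 14.7 ± 1.2 in controls and 13.6 ± 2.45 in knockouts. Bcl2l13, the counterpart of a yeast mitophagy receptor, stood at 14.9 ± 2.13 and 16.7 ± 2.55, and Fkbp8, a receptor that binds LC3A, at 83.6 ± 5.07 and 79.2 ± 9.37. Without knockouts 2 and 4 the log2 difference of Fundc1 was -0.31, at an unadjusted limma p of 0.0496 and an adjusted p of 0.389, beside -0.12 with all 8 libraries.

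Pink1, the kinase that marks damaged mitochondria, stood at 512, 405, 558 and 391 scaled FPKM in controls 1 to 4 and at 539, 425, 555 and 461 in knockouts 1 to 4. The gene had the highest level of the 38, control and knockout values interleaved, and the log2 difference was 0.093 (interval -0.24 to 0.42, adjusted p = 0.835). Park2, which encodes parkin, stood at 7.59, 7.12, 12.3 and 2.35 scaled FPKM in controls 1 to 4 and at 8.43, 11.8, 12.6 and 11.1 in knockouts 1 to 4. Control 4 was the lowest of all libraries, while control 3 lay above 3 of the 4 knockouts. Park2 had the largest log2 difference of the 38, 0.67, and also the largest error (SE 0.36, adjusted p = 0.483). Without control 4 the log2 difference was 0.28. The listed gene D17Ertd648e overlaps Park2, which lies on chromosome 17 from 10840384 to 12063360 (mm10).

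The transcription factor genes Tfeb and Tfe3 had small differences between genotypes. Tfeb stood at 41, 46.6, 43.7 and 36.3 scaled FPKM in controls 1 to 4 and at 42.8, 39.4, 48.2 and 42.4 in knockouts 1 to 4. The log2 difference was 0.045 (interval -0.18 to 0.27, adjusted p = 0.884), and the groups overlapped. Tfe3 stood at 4.25, 4.8, 4.57 and 4.5 scaled FPKM in controls 1 to 4 and at 4.36, 4.25, 4.47 and 4.06 in knockouts 1 to 4. Its log2 difference was -0.065 (interval -0.22 to 0.089, adjusted p = 0.742). In FPKM as deposited Tfeb stood between 8.06 and 10.8 times as high as Tfe3 over the 8 libraries. These are mRNA levels, and the location and phosphorylation that set the activity of both factors were not measured.

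Other genes of the pathway were read from a list of 74 symbols, of which 73 were in the tables and 70 were tested. None passed the test in either direction, their median log2 difference was 0.027, and 8 (11.4%) had an unadjusted p under 0.05, beside 13.1% of all genes tested. Of the 70 genes 4 (5.71%) had no overlap between genotypes, beside 8.31% of all genes tested: Mfn1, Nrbf2, Tollip and Mtor. The mitofusin gene Mfn1 stood at 64.3 ± 5.76 in controls and 79.9 ± 6.59 in knockouts, a log2 difference of 0.31 (SE 0.093, adjusted p = 0.206). Nrbf2, a subunit of the ATG14 form of the PI3-kinase complex, stood at 6.0 ± 0.536 in controls and 4.66 ± 0.276 in knockouts, a log2 difference of -0.30 (SE 0.080, adjusted p = 0.165). Tollip, a ubiquitin-binding adaptor, stood at 16.3 ± 0.128 in controls and 14.1 ± 0.931 in knockouts, with a log2 difference of -0.20 and an adjusted p of 0.26. Mtor, the kinase that restrains the ULK complex, stood at 7.0 ± 0.282 in controls and 8.11 ± 0.676 in knockouts, with a log2 difference of 0.19 and an adjusted p of 0.355, and Angptl7 overlaps it. The log2 difference of Bag3, a chaperone partner in selective autophagy of sarcomere proteins, was 0.26 (adjusted p = 0.374), but 0.090 in the 5 libraries without Xist and 0.13 without knockouts 2 and 4. Those of Sh3glb1, which binds beclin 1 through UVRAG, Vamp8, a vesicle fusion protein, and Trp53inp2, a binder of ATG8 proteins, were -0.25, -0.26 and -0.21 (adjusted p = 0.369, 0.377 and 0.365), and Vamp8 was at -0.11 without knockouts 2 and 4. By group, 9 of 11 genes of fusion with lysosomes were higher, with a median of 0.033, and 10 of 18 further core genes, with a median of 0.025. Of further receptors and adaptors 6 of 11 were higher, of further mitophagy genes 5 of 13, and of upstream regulators 11 of 18, with medians of 0.030, -0.042 and 0.040.

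Values of 13 of the 38 genes (34.2%) did not overlap between the 3 libraries with Xist and the other 5, beside 20.7% of all genes tested. The labels do not define these sets, 1 control and 2 knockouts fall in the first, and the sets also differ in Myh2, so what goes with each cannot be told apart. No test was made between them. Higher in the libraries with Xist were 7 of the 38 (18.4%), beside 11.4% of all genes tested, and lower were 6 of the 38 (15.8%), beside 9.37%. All 3 cargo receptor genes were among the 13, with 1 higher and 2 lower. Sqstm1 ranged from 276 to 280.1 scaled FPKM in the 3 and from 332 to 479.6 in the 5, so control 1 lay with knockouts 2 and 4. Optn ranged from 32.7 to 40.3 and from 45.9 to 88.3, a log2 difference of -0.71 between the means of the sets. Nbr1 went the other way, from 29.6 to 34.8 in the libraries with Xist and from 24.8 to 27.6 in the rest.

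In the ULK complex Rb1cc1 had the largest such log2 difference, 0.61, with 20.5 to 24.7 scaled FPKM in the libraries with Xist and 12.5 to 16.2 in the rest. Ulk2 ranged from 21.1 to 22.9 against 16.6 to 19.4, and Atg101 was lower, at 43.8 to 47.7 against 48.5 to 65.7. Atg9a ranged from 47.8 to 54.2 against 40.9 to 45.5, and Atg5 from 9.95 to 10.9 against 7.34 to 9.46. Among the mitophagy receptors Bcl2l13 and Fundc1 were higher in the libraries with Xist, at 17.6 to 18.9 against 12.5 to 15.3 and 15.2 to 16.2 against 10.2 to 15. Fkbp8 and Phb2 were lower there, at 71 to 79.9 against 80.2 to 90.8 and 95.7 to 101 against 104 to 118. Tfe3, the last of the 13, ranged from 4.06 to 4.25 against 4.36 to 4.8. Fundc1 and Tfe3 are X-linked. No gene of the nucleation complex or of the ATG8 family was among the 13. On FPKM as deposited the count was 10, with 7 higher and 3 lower, beside 18.4% of all genes tested.

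**Figure D3:**
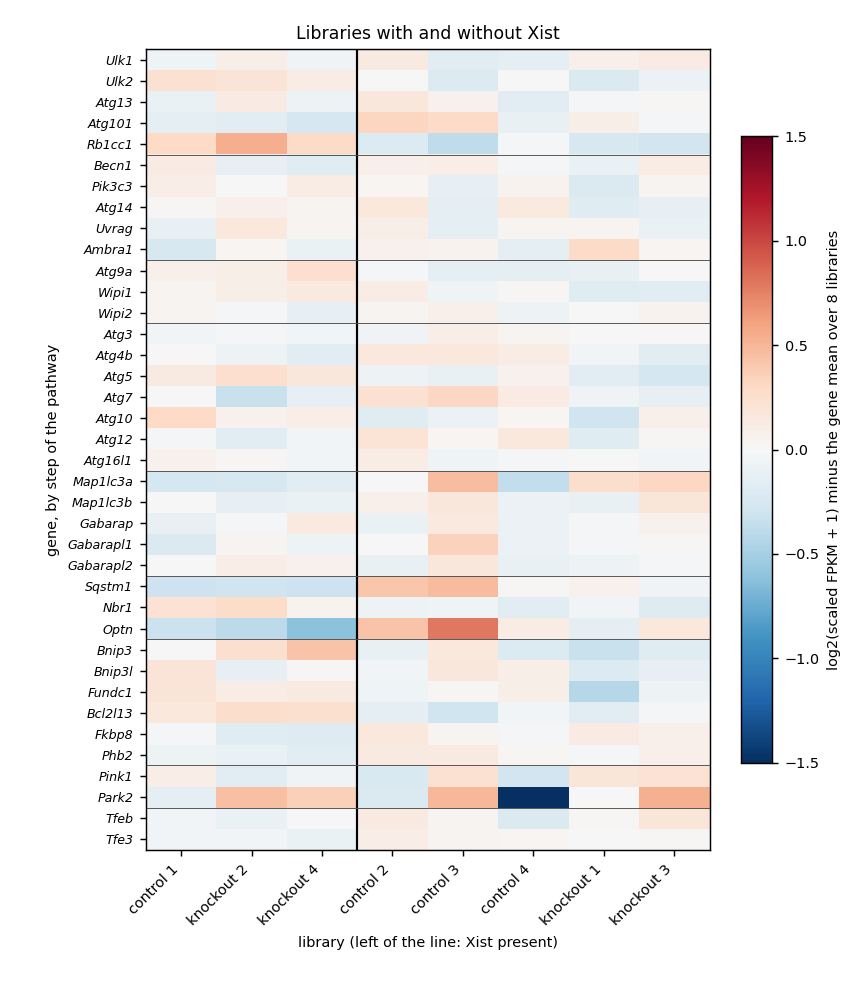
Log2(scaled FPKM + 1) of each gene (vertical axis, by step) minus its mean over the 8 libraries, as colour, with the 3 libraries that hold Xist to the left of the line and the other 5 to the right. Rb1cc1 is red and Sqstm1 and Optn are blue in control 1, knockout 2 and knockout 4 alike.

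Within these sets the genotype values of several genes were unlike. Bnip3 differed by -0.20 between the 2 knockouts and 3 controls without Xist and by 0.33 between the 2 knockouts and 1 control with it. Pink1 differed by 0.30 and -0.21, and Sqstm1 by -0.30 and 0.013. The same direction in both sets was seen for 23 of the 38 genes (7285 of 11096 genes tested). Atg7 differed by -0.31 and -0.22, Atg4b by -0.24 and -0.12, and Bnip3l by -0.24 and -0.25, so these 3 genes were lower in the knockout in both. They were picked for low p-values over the same 8 libraries, so the shared direction adds no separate evidence. The difference between the sets was not tested, since 1 of them holds a single control.

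**Figure D4:**
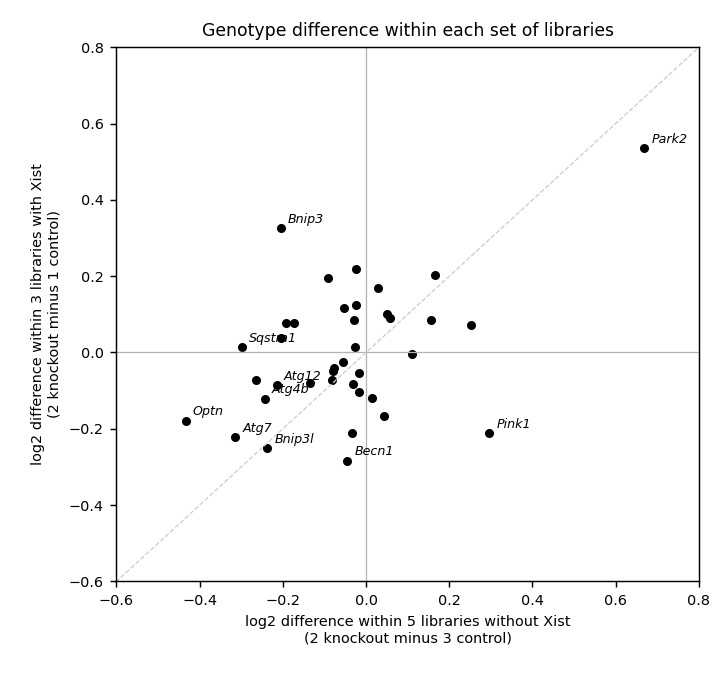
Log2 difference between genotypes of each of the 38 genes within the 5 libraries without Xist (horizontal axis) and within the 3 libraries with Xist (vertical axis), with the dashed line where both are equal. Atg7, Atg4b and Bnip3l lie below 0 on both axes, while Bnip3 and Pink1 each have opposite signs on the 2 axes.

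With Xist as a term in the model, limma called 2.01% of all genes and none of the 38, whose median log2 difference was -0.039 and whose smallest adjusted p was 0.12, for Atg7. The 3 genes at an unadjusted p under 0.05 were again Atg7, Atg4b and Bnip3l, beside 18.6% of all genes. Their log2 differences were -0.28, -0.20 and -0.24, with limma adjusted p-values of 0.12, 0.157 and 0.141. In the 5 libraries without Xist none of the 38 was called, beside 0.00936% of all genes, and Atg7 and Atg4b were the 2 at an unadjusted p under 0.05, beside 12.5% of all genes. Without knockouts 2 and 4 none of the 38 was called, beside 12 of all 10834 genes tested. The 2 of the 38 at an unadjusted limma p under 0.05 were Bnip3l and Fundc1, beside 1391 of those 10834 genes. In that fit Atg7 and Atg4b were at -0.26 and -0.21 with unadjusted limma p-values of 0.0634 and 0.0702. The log2 difference of Optn was -0.34 with the covariate and -0.43 in those 5 libraries, and that of Park2 was 0.62 and 0.67.

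Markers of other cells were read beside these values, since in bulk tissue fewer cells of a type and less RNA per cell cannot be told apart, and none of the markers tested was called with all 8 libraries. Endothelial markers were lower in the knockout for 6 of 6 genes, with sums of 197 to 245 scaled FPKM in controls and 168 to 214 in knockouts. Fibro-adipogenic markers were lower for 6 of 6, with sums of 210.3 to 460.2 and 189 to 343, and those of smooth muscle and pericytes for 5 of 5, with 169 to 255 and 157 to 190.3. Schwann cell markers were lower for 4 of 4, with 47.2 to 77.6 and 47.4 to 62.4. Macrophage markers were higher for 6 of 6 tested, with 15.7 to 27.6 and 17.1 to 29.7. The sums overlapped between genotypes in these 5 lists. They also overlapped for adipocytes (9.0 to 19.98 and 4.16 to 22.7), satellite cells (8.74 to 10.2 and 9.5 to 12.4), blood (313 to 700.3 and 337 to 914) and tendon (29 to 66.7 and 38.7 to 95.2). Of the lymphocyte list 1 gene reached 1 FPKM in any library. The T cell gene Cd3e stood at 1.13, 1.45, 0.961 and 1.27 scaled FPKM in controls 1 to 4 and at 8.32, 2.23, 5.09 and 4.43 in knockouts 1 to 4. Every knockout lay above every control, knockout 1 highest, with a log2 difference of 1.36 (SE 0.27, limma adjusted p = 0.0869), and without knockouts 2 and 4 the adjusted p was 0.0338. Adgre1 of macrophages, Plin1 and Lep of adipocytes and Pax7 of satellite cells were under 1 FPKM in every library. The tissue label was checked on fibre markers, of which 4 of 8 could be used (Mylpf, Actn3, Myh2 and Myh7), with sums of 25337 to 38635 in controls and lower sums, 17533 to 22767, in every knockout. The lower sum is not shared by all of these genes, since of the 3 tested 1 was higher and 2 were lower in the knockout. The other 4, Acta1, Ckm, Tnnt3 and Atp2a1, had a status other than OK in at least 1 library. The part of these markers in the values of the autophagy genes was not tested.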

How the data were processed

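RNA of 8 tibialis anterior muscles was made into TruSeq libraries (per the labels' protocols). STAR, Cufflinks and mm10 are named in the submitters' processing notes, and the sources used here give neither versions nor annotation. The authors deposited FPKM, a table for each library with Cufflinks columns per the file headers. Read counts and depth are unknown, no count model was used, and Cufflinks splits the reads of overlapping genes by estimation.

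Each library was divided by its median-of-ratios factor (0.904 to 1.07) and analysed as log2(scaled FPKM + 1), which understates the change of low genes. Left out were 23 genes whose status was not OK in every library. The 11096 genes that reached 1 scaled FPKM in 4 or more libraries were tested with limma 3.58.1 (R 4.3.3, eBayes with a trend), genotype as the single term, Benjamini-Hochberg adjustment and a threshold of 0.05. The fit was checked on simulated data, where it called 82.1% of log2 changes of 1 and 42.3% of those of 0.5. Of the calls, 4.5% were false. The simulated libraries were independent and did not hold the sets with and without Xist. Changes of 0.5 or less can thus go uncalled in this design. Carm1 was also tested by exact permutation. Values in every library are given for genes at a p under 0.05 and, in each step, for the most abundant gene and that with the largest difference. Alternatives were no scaling, quantile normalization, a pseudocount of 0.1, no filter or a mean of at least 5 FPKM, robust eBayes, array weights, a replicate block, a Xist term and left-out libraries. Whether the replicate numbers pair the animals could not be decided from the values, and the main fit did not pair them. Members, lists and alternatives were chosen with earlier results of these data known. The limma p-values set each genotype difference against the spread between these animals within a genotype, with that spread moderated over all genes. Of the marker lists, 1 gene is not reported here. Of the lymphocyte list Cd3e is given alone. Promoter windows were not analysed here for Becn1, Pik3c3, Atg12, Atg16l1, Map1lc3a, Rb1cc1, Bnip3l and Park2. Plots and summaries used matplotlib 3.10.9, pandas 2.3.3, numpy 2.4.6 and scipy 1.17.1 under Python 3.11.15.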

Additional observations from a re-analysis of the deposited data

Results flagged for a closer look

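Of 78 groups of 4 libraries examined (38 genes and Carm1 in each genotype), 3 held a library whose gap to the nearest other exceeded Dixon's 95% critical value, and chance alone flags about 1 in 20 groups. Atg10 stood at 8.95 scaled FPKM in knockout 1, below the 11.9 to 12.1 of the other knockouts. Map1lc3b stood at 116 in knockout 3, above the 93.2 to 94.9 of the other knockouts. Gabarap stood at 189.7 in control 3, above the 159 to 161 of the other controls. None of the 3 genes passed the test between genotypes.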

How the results depend on the processing

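None of the 38 genes was called under the 19 alternatives, but at a mean of at least 5 FPKM only 34 were tested, without Atg7 and Tfe3 among others. Their smallest limma adjusted p ranged from 0.111 with array weights to 0.374 without knockout 2, with 1 to 6 of them at an unadjusted p under 0.05. That count was 1 without scaling, beside 1608 of all 11111 genes tested, and 6 with array weights, beside 1888 of all 11096. With 1 library left out Pink1 ranged from 0.014 to 0.18, Atg9a from 0.055 to 0.17, Atg101 from -0.26 to -0.11, Becn1 from -0.21 to -0.11, Phb2 from -0.15 to -0.074, Tfe3 from -0.090 to -0.042 and Park2 from 0.28 to 0.95. The median log2 difference of the 38 was 0.057 without scaling, where the median of all genes was 0.07, and between -0.042 and 0.0065 with 1 library left out. That of the further pathway genes was 0.10 without scaling, -0.0054 with Xist as a covariate, -0.011 without the Xist libraries and between -0.018 and 0.025 with 1 library left out. Tfe3 turned to 0.0070 without scaling, Map1lc3a ranged from -0.021 to 0.26 and Tfeb from -0.020 to 0.096 with 1 library left out, both below 0 without control 4 and without knockout 3, and the other genes given in every library kept their direction.

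Over all genes, 40 were called, and 8 with no filter, 15 at a mean of at least 5 FPKM, 103 with array weights, 223 with Xist as a covariate, 1 in the 5 libraries without Xist, 12 without knockouts 2 and 4, and between 2 and 27 with 1 library left out. With the replicate number as a block 0 were called (in limma 1314 at an unadjusted p under 0.05), and Carm1 had an adjusted p of 0.189 at -0.94. Same-numbered libraries had correlations of -0.432, -0.194, 0.349 and 0.194 in their deviations from the group means, which share no direction. Control 1 correlated at 0.479 and 0.375 with knockouts 2 and 4, the other libraries with Xist, and at -0.432 and -0.375 with knockouts 1 and 3. With these sets in the data, the correlations cannot decide whether the numbers pair the animals. The log2 difference of Carm1, with its adjusted p, was -0.94 (0.0791) with no filter, -0.80 (0.163) without the Xist libraries, -0.75 (0.15) without knockouts 2 and 4, and between -1.02 and -0.84 with 1 library left out, where it was called in none of the 8 fits (adjusted p 0.0638 to 0.154). Apart from fewer libraries or fewer or more genes tested, the cause was not tested. The count of 13 genes without overlap by Xist lay between 10 and 16 under the alternatives, which were chosen after the data were seen. Depth is unknown, so no counting error can be given.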

Other observations

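Among the further pathway genes tested, 19 of 70 (27.1%) had no overlap between the 3 libraries with Xist and the other 5, 11 higher and 8 lower, beside 20.7% of all genes tested. The genes named here were singled out after their values were seen. The widest separation was that of Foxo3, a forkhead factor known to drive autophagy genes in muscle. It stood at 4.48, 1.86, 1.57 and 1.96 scaled FPKM in controls 1 to 4 and at 1.79, 6.62, 1.7 and 4.52 in knockouts 1 to 4. Control 1, knockout 2 and knockout 4 were its highest libraries, at 4.48 to 6.62, and the other 5 ranged from 1.57 to 1.96, a log2 difference of 1.15 between the sets. Its log2 difference between genotypes was 0.35 (SE 0.37, limma adjusted p = 0.747) and 0.070 with Xist as a covariate (adjusted p = 0.792). The small heat shock gene Hspb8, a partner of BAG3, ranged from 165 to 227 in the libraries with Xist and from 228 to 304 in the rest. Flcn, the folliculin gene, ranged from 18.3 to 21 and from 21.7 to 35.5, Vcp, a segregase that extracts ubiquitin-tagged proteins, from 91 to 98 and from 110.1 to 128, and Wdfy3, a large adaptor for aggregates, from 3.11 to 4.02 and from 2.04 to 2.85. What sets these libraries apart, including Myh2 and Xist, was not tested.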
